A study of Homo sapiens with 5 samples.

Results

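The mitochondrial protein import machinery was examined as a set of 34 listed genes of the TOM, TIM, sorting, and intermembrane space import systems. They were found by gene name among the 27328 Ensembl genes of a count matrix from TF-1 cells, a human erythroleukemia line used as a model of acute myeloid leukemia (AML). Of the 34 genes, 33 had a row in the matrix and 30 passed the filter on low counts. *TOMM6* was not analysed here, and *TOMM40L*, *PAM16*, and *MTX1* had too few reads to be tested. The series asked how loss of *MTSS1*, which encodes an actin- and membrane-binding scaffold protein, changes gene expression in AML cells. Control cells (2 libraries, sgCtrl pools 1 and 2) carried an sgRNA against *renilla luciferase*. *MTSS1* knockout cells (3 libraries) had been made with sgMTSS1_1, sgMTSS1_2, or sgMTSS1_3, and each of these sgRNAs is represented by 1 pool. All pools carried lentiviral CRISPR/Cas9 components, each consisted of 4 single-cell clones, and all were grown overnight before harvest. Replicates are therefore pools, and p-values measure the spread between the pools analysed. Where a fit leaves out a control pool, 1 control library remains, and its p-values rest on the spread of the knockout pools alone. sgCtrl pool 3 and the sgMTSS1_4 pool, which the authors left out after an outlier test, were not analysed here. The spread between pools does not include them and can be smaller than that of all pools made.

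Most mitochondrial proteins are made on cytosolic ribosomes and must be carried across the mitochondrial membranes. The TOM complex is the entry gate of the outer membrane, where receptors such as TOMM20, TOMM22, and TOMM70 bind precursor proteins and TOMM40 forms the channel. Behind it the routes divide: the TIM23 complex and its import motor PAM take presequence proteins into the matrix, where the peptidase MPP removes the presequence. The small TIM chaperones hand multispanning carrier proteins to the TIM22 complex, SAM inserts barrel-shaped proteins into the outer membrane, and the MIA pathway traps small cysteine-rich proteins in the intermembrane space by oxidizing them. All of these components are encoded in the nucleus, and blood cell precursors that divide rapidly or make heme depend on the import of enzymes by these routes.

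Total counts were 2849979 and 3408827 for control pools 1 and 2, and 8854899, 5442639, and 5801636 for knockout pools 1 to 3, named after their sgRNA. All knockout libraries exceeded the control libraries in depth. Values per library are given in this order throughout. Levels are given as CPM, counts scaled to a common library total after TMM normalization, and 3 counts correspond to 0.389 to 0.938 CPM. Ribosomal protein genes took 7.55% and 9.3% of the counts in control libraries, against 17.7%, 11.9%, and 13.9% in knockout libraries. Mitochondrially encoded genes took 13.9% and 8.63% in control and between 6.71% and 7.44% in knockout pools. The part of these shares in the results was not tested. All 14 markers of the TF-1 line, including *CD34*, *GATA1*, and *KLF1*, exceeded 3 counts in every library. Of 10 markers of other cell types, 7 had a row in the matrix and 2 to 4 exceeded 3 counts, and their summed level of 127 to 243 CPM came mostly from *PECAM1*, which myeloid cells also express. *MTSS1* mRNA was 204 and 87.9 CPM in control and 104, 139, and 49.9 CPM in knockout pools and does not separate the groups (log2-fold change −0.58, standard error (SE) 0.47, edgeR quasi-likelihood adjusted p = 0.494). The labels were therefore not checked by the mRNA of the targeted gene, while the study's methods describe a check of the knockout by immunoblot.

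Across all 14391 tested genes, edgeR's quasi-likelihood test called 600 (4.17%) higher and 145 (1.01%) lower in the knockout at an adjusted p under 0.05 and a log2-fold change beyond 1, which makes 745 (5.18%) in either direction. Among the 30 tested import genes, *TOMM22*, *TOMM70*, and *CHCHD4* rose and *GFER* fell. That is 10% of these genes in the upward and 3.33% in the downward direction, and the other 26 did not pass. The first 3 encode a central receptor of the TOM complex, the receptor for carrier proteins and chaperone-bound precursors, and the oxidoreductase at the core of the MIA pathway. GFER is the sulfhydryl oxidase that reoxidizes CHCHD4. The downward 3.33% is *GFER* alone, which passed the filter on low counts through the control pools alone. Its passing the filter and its direction are therefore linked. Because each library comes from a whole pool of clones, a change in the number of cells that express a gene and a change in the RNA per cell cannot be told apart.

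The sequences upstream of the 4 genes that passed the test are shown because their mRNA levels are what the comparison turns on. They are the 250 bases before the RefSeq transcription start, on the strand of the gene, in GRCh38.p14. *TOMM22* (ENSG00000100216) lies on the plus strand of chromosome 22, from 38681957 to 38685421 of GRCh38, and the window is chr22:38681707-38681956. *TOMM70* (ENSG00000154174) lies on the minus strand of chromosome 3, from 100363431 to 100401089, with the window chr3:100401090-100401339. *CHCHD4* (ENSG00000163528) lies on the minus strand of chromosome 3, from 14112077 to 14124870, with the window chr3:14124871-14125120. *GFER* (ENSG00000127554) lies on the plus strand of chromosome 16, from 1984193 to 1987749, with the window chr16:1983943-1984192. Capitals mark a match to any of the 5 motifs described after the sequences.
TOMM22: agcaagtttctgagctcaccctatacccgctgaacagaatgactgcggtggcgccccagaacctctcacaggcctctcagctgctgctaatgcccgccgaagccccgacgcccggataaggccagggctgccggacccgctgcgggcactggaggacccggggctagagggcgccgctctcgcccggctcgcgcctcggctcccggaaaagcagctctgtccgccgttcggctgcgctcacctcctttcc
TOMM70: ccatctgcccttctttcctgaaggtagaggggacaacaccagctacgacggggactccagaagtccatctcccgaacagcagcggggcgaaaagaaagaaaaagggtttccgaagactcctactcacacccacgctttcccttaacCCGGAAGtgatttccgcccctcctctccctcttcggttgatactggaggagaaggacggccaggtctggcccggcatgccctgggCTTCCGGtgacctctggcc
CHCHD4: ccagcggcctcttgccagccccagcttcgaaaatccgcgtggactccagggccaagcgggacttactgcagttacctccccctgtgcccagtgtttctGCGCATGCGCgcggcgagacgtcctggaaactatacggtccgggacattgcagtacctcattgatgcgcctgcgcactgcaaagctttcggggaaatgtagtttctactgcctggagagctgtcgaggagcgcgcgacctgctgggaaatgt
GFER: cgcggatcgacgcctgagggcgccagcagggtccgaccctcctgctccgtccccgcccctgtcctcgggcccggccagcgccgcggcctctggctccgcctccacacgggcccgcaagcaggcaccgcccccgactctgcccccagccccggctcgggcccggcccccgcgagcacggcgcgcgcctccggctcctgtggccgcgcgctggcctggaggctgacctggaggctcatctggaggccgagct

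The motifs searched on both strands were the NRF1 core GCGCATGC, the ETS core CCGGAAG, the YY1 core AAGATGG, the CRE TGACGTCA, and the E-box CACGTG. NRF1 and the ETS family member GABP are known activators of nuclear genes for mitochondrial proteins. The *CHCHD4* window holds the NRF1 core on both strands in 1 overlapping run, the *TOMM70* window holds the ETS core at a pair of places, and the *TOMM22* and *GFER* windows hold none of the 5 motifs. RefSeq windows were found for 31 of the 34 listed genes. The NRF1 core occurred in 4 of them (12.9%), *CHCHD4*, *TOMM7*, *TIMM9*, and *PAM16*, against 2.8% of all 27305 windows and 3.7% of the 15843 windows of protein-coding genes. The ETS core occurred in 10 (32.3%), against 8.8% and 11.8%. Among those 10 were *TOMM70*, *TOMM20*, *TIMM10*, and *TIMM13*, whose log2-fold changes were 1.74, −0.38, 0.90, and −0.47. The rest were *PMPCB* (0.58), *TIMM29* (0.25), *DNAJC15* (−0.03), *TIMM23* (−0.05), *TIMM10B* (−0.06), and *TOMM6*, which was not analysed. The YY1 core occurred in 1 window (3.2%), against 3.8% and 3.3%, the E-box in 1, against 6.5% and 7.8%, and the CRE in 0, against 1.8% and 2.3%. A match says only that these letters are present in the window.

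The TOM complex held the largest rise among the 30 genes. *TOMM22* mRNA was 72.5 and 73.6 CPM in control and 591, 261, and 319 CPM in knockout pools. The control pools were nearly equal and every knockout pool was more than 3 times as high. The means were 73.1 ± 0.756 CPM (SD, n = 2) and 390 ± 176 CPM (SD, n = 3), with a log2-fold change of 2.42 (SE 0.42, edgeR quasi-likelihood adjusted p = 0.0176). *TOMM22* passed under every alternative setting, including the omission of any 1 library, with adjusted p-values up to 0.0477. Annotation names 6 pseudogenes after *TOMM22*, and the removal of reads that map to more than 1 place can lower its count in all libraries.

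*TOMM70* was 79.7 and 62.3 CPM in control and 220, 226, and 266 CPM in knockout pools. The 3 knockout pools lay close together and well above both controls, with means of 71.0 ± 12.3 CPM (SD, n = 2) and 237 ± 24.9 CPM (SD, n = 3). The log2-fold change was 1.74 (SE 0.31, edgeR quasi-likelihood adjusted p = 0.0182). The adjusted p was 0.0606 without the sgMTSS1_1 pool and 0.0681 without the sgMTSS1_3 pool, at log2-fold changes of 1.78 and 1.70.

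The partner receptor TOMM20, which recognizes presequences and sits beside TOMM22, did not pass the test. *TOMM20* was 85.7 and 68.8 CPM in control and 60.7, 66.4, and 51.3 CPM in knockout pools, so that every knockout pool lay slightly below both controls. Its log2-fold change was −0.38 (SE 0.29, edgeR quasi-likelihood adjusted p = 0.471). Ratios within a library hardly depend on how libraries are scaled to each other when both genes have many counts. They were taken from log2 CPM with a prior count of 2, added to every gene in proportion to library size. This addition shrinks ratios that involve a gene with few counts. The log2 ratio of *TOMM22* to *TOMM20* was −0.24 and 0.10 in control and 3.27, 1.96, and 2.63 in knockout pools, a difference of 2.69. That of *TOMM70* to *TOMM20* was −0.10 and −0.14 in control and 1.85, 1.76, and 2.36 in knockout pools, a difference of 2.12. In both the groups were separate. These pairs were chosen after their values had been seen, and no test of them is given.

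The remaining TOM genes lay between these extremes. *TOMM7*, which encodes a small subunit that also stabilizes the kinase PINK1 on damaged mitochondria, was 51.0 and 57.5 CPM in control and 199, 104, and 120 CPM in knockout pools. The groups did not overlap, but its log2-fold change of 1.38 missed the threshold (SE 0.36, adjusted p = 0.0578). With DESeq2 the adjusted p of *TOMM7* was 0.0115 and without a filter on low counts it was 0.0145. *TOMM34*, a cytosolic cochaperone of precursors, had control levels of 63.2 and 62.3 CPM and knockout levels of 147, 104, and 121 CPM (log2-fold change 0.98, adjusted p = 0.0884). *TOMM40*, the channel subunit, was 56.6 and 42.9 CPM in control and 64.5, 108, and 87 CPM in knockout pools (0.80, adjusted p = 0.186). Both were separate between the groups without passing the test. *TOMM5*, a small subunit of the channel complex, overlapped between the groups (0.37, adjusted p = 0.698). *TOMM40L*, a paralogue of the channel subunit, had 5 and 6 counts in control and 5, 4, and 9 counts in knockout libraries. Its low counts leave the log2 ratio of *TOMM40* to *TOMM40L* imprecise, at 4.87 and 4.31 in control and 5.96, 6.6, and 5.48 in knockout pools. The 2-sided exact permutation test over pools gave p = 0.1, the smallest p that 2 against 3 pools allow (0.13 after Benjamini-Hochberg adjustment over the 9 ratios computed). Of these 9 ratios, 3 were chosen after their values had been seen, and each of those had the smallest p. Their inclusion lowers the adjusted p, so that 0.13 is too low. In all, 2 of 7 tested TOM genes rose (28.6%, against 4.17% of all tested genes), 6 of 7 had a log2-fold change above 0, and their median was 0.98, beside −0.03 over all tested genes.

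**Figure D1:**
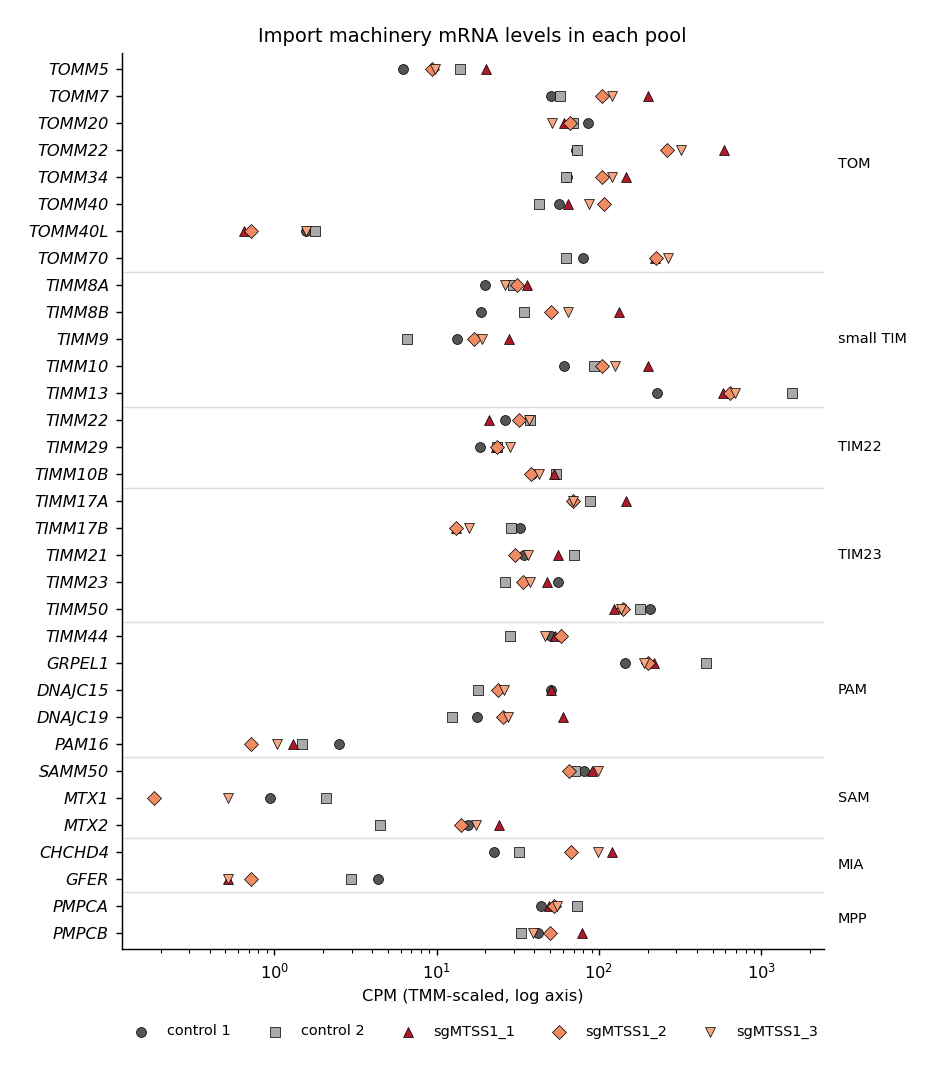
Level of each import gene in every library, in TMM-scaled CPM on a log axis, with genes grouped by the complex they belong to and 1 symbol per pool. The 3 knockout pools of *TOMM22*, *TOMM70*, and *CHCHD4* lie to the right of both control pools and those of *GFER* to the left, while the control pools of *TIMM13* lie on either side of the knockout pools. *MTX1* is at 0 in the sgMTSS1_1 pool and has no point there.

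Of the 5 small TIM chaperones, which form hexameric rings in the intermembrane space, edgeR's quasi-likelihood test called 0 (against 5.18% of all tested genes). An unadjusted p under 0.05 was reached by 3 (against 23.3%). DESeq2 called 1, *TIMM8B*, while limma-voom called 0. Over all 14391 tested genes, DESeq2 called 1019 higher and 338 lower, and limma-voom called 510 higher and 124 lower. *TIMM8B* was 18.8 and 34.3 CPM in control and 132, 50.4, and 64.4 CPM in knockout pools, with a log2-fold change of 1.63 (SE 0.48, adjusted p = 0.0807, or 0.0187 with DESeq2). It overlaps *NKAPD1* on the opposite strand, which makes its count uncertain unless strand was used in counting. The knockout levels were separate from control and the sgMTSS1_1 pool stood highest. *TIMM9* and *TIMM10*, the subunits of the ring that carries metabolite carriers, were likewise separate between the groups, with log2-fold changes of 1.09 (adjusted p = 0.16) and 0.90 (adjusted p = 0.186). *TIMM8A*, the gene mutated in deafness-dystonia syndrome, was 20.0 and 29.5 CPM in control and 36.1, 31.1, and 26.4 CPM in knockout pools (0.33, adjusted p = 0.583). Within a library, the log2 ratio of *TIMM8A* to *TIMM8B* was 0.09 and −0.21 in control and −1.86, −0.69, and −1.27 in knockout pools, which were separate (exact permutation p = 0.2, 0.2 after adjustment over 9 ratios).

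*TIMM13*, which encodes the partner of TIMM8A, differed most between the control pools. It was 227 CPM in control pool 1 and 1538 CPM in control pool 2, a ratio of 6.77, against 581, 637, and 689 CPM in the knockout pools. All knockout pools thus lay between the controls, with means of 883 ± 927 CPM (SD, n = 2) and 635 ± 54 CPM (SD, n = 3). The log2-fold change was −0.47 (SE 0.61, edgeR quasi-likelihood adjusted p = 0.69). It was −1.26 without control pool 1 and 1.51 without control pool 2, so that its sign depended on the control pool used. *TIMM13* overlaps *TMPRSS9* on the opposite strand. The median log2-fold change of the 5 small TIM genes was 0.90.

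In the TIM22 genes the groups overlapped throughout. *TIMM22*, the carrier translocase channel, had a log2-fold change of −0.09, *TIMM10B* of −0.06, and *TIMM29*, which links the complex to TOM, of 0.25 (adjusted p = 0.907, 0.927, and 0.679). *TIMM22* was 26.3 and 37.5 CPM in control and 20.9, 32.0, and 37.2 CPM in knockout pools. *TIMM29* was 18.4 and 23.5 CPM in control and 23.3, 23.5, and 28.2 CPM in knockout pools. Of the 3 genes, 0 were called by edgeR (against 5.18% of all tested genes), DESeq2, or limma-voom. An unadjusted p under 0.05 was reached by 0 (against 23.3%).

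The TIM23 genes had a median log2-fold change of −0.35, and 4 of the 5 were below 0. edgeR's quasi-likelihood test called 0 of them (against 5.18% of all tested genes), and 1 had an unadjusted p under 0.05 (against 23.3%). DESeq2 called *TIMM17B* lower, as it did 338 of all 14391 tested genes, and limma-voom called 0. *TIMM17B*, 1 of the paralogous subunits that shape the presequence channel, was 32.8 and 28.6 CPM in control and 13.1, 13.2, and 15.8 CPM in knockout pools. The knockout levels were close to each other and well below both controls, but the log2-fold change of −1.13 had an adjusted p of 0.0636 (SE 0.31, or 0.0313 with DESeq2). *TIMM17B* overlaps *PQBP1* on the opposite strand. *TIMM50*, the presequence receptor of the complex, was 205 and 178 CPM in control and 124, 140, and 136 CPM in knockout pools, separate between the groups without passing the test (−0.52, adjusted p = 0.289). *TIMM21*, which couples the complex to the respiratory chain, had a log2-fold change of −0.35, and *TIMM23*, the channel itself, of −0.05.

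*TIMM17A*, the stress-labile paralogue, was 69.1 and 87.6 CPM in control and 146, 69.5, and 69.4 CPM in knockout pools, so that the sgMTSS1_1 pool alone stood above the controls (0.28, adjusted p = 0.713). The log2 ratio of *TIMM17A* to *TIMM17B* within a library was 1.06 and 1.60 in control and 3.44, 2.36, and 2.11 in knockout pools, a difference of 1.30. The groups were separate, and the exact permutation test gave p = 0.2 (0.2 after adjustment over 9 ratios). *TIMM23* and its near-identical copy *TIMM23B* share sequence, and reads that fit both were removed. The log2 ratio of the first to the second was 4.14 and 2.47 in control and 4.96, 4.38, and 4.73 in knockout pools. No test of this ratio is given, because *TIMM23B*, at 1.04 to 4.47 CPM, passed the low-count filter through the control pools alone.

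Of the 4 tested PAM genes, 0 were called by edgeR's quasi-likelihood test (against 5.18% of all tested genes), DESeq2, or limma-voom. An unadjusted p under 0.05 was reached by 1 (against 23.3%), and the median was 0.19. *DNAJC19*, a J-protein of the motor whose loss causes a cardiomyopathy syndrome, was 17.8 and 12.5 CPM in control and 60.3, 25.6, and 27.5 CPM in knockout pools (log2-fold change 1.32, SE 0.45, adjusted p = 0.118). Its paralogue *DNAJC15*, also called methylation-controlled J protein, was 51.0 and 17.9 CPM in control and 51.0, 23.8, and 25.9 CPM in knockout pools (−0.03, adjusted p = 0.979). *DNAJC15* was higher than *DNAJC19* in both control libraries and nearly equal to it or slightly lower in the 3 knockout libraries. The log2 ratios were 1.5 and 0.5 against −0.24, −0.10, and −0.08 (exact permutation p = 0.1, 0.13 after adjustment). The adjusted value is too low, because the adjustment included pairs chosen after their values had been seen. *DNAJC15* itself differed 2.85-fold between the control pools. *DNAJC19* has 9 pseudogenes and overlaps *SOX2-OT* on the opposite strand.

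*GRPEL1*, the nucleotide exchange factor of the motor's HSP70, had, like *TIMM13*, control pool 1 lowest and control pool 2 highest. It was 144 CPM in control pool 1 and 455 CPM in control pool 2, with knockout levels of 218, 199, and 189 CPM (log2-fold change −0.57, SE 0.43, adjusted p = 0.47). Without control pool 1 the log2-fold change was −1.16 and without control pool 2 it was 0.51. Its paralogue *GRPEL2* was 9.07 and 7.15 CPM in control and 21.9, 13.4, and 16.5 CPM in knockout pools (1.09, adjusted p = 0.128). The log2 ratio of *GRPEL1* to *GRPEL2* was 3.93 and 5.92 in control and 3.29, 3.86, and 3.48 in knockout pools (exact permutation p = 0.1, 0.13 after adjustment). That adjusted value is too low for the same reason as for *DNAJC15* and *DNAJC19*. *TIMM44*, the anchor of the motor at the channel, had a log2-fold change of 0.42, and *PAM16*, which restrains the motor's J-proteins, had 8 and 5 counts in control and 10, 4, and 6 counts in knockout libraries.

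In the outer membrane, *SAMM50*, the core of the SAM complex, was 80.7 and 71.2 CPM in control and 90.3, 65.0, and 99.2 CPM in knockout pools (0.16, adjusted p = 0.796). *MTX2* was 15.6 and 4.47 CPM in control and 24.1, 14.1, and 17.6 CPM in knockout pools (0.89, adjusted p = 0.331). The log2-fold change of *MTX2* was 2.07 without control pool 1 and 0.28 without control pool 2. *MTX1* had 3 and 7 counts in control and 0, 1, and 3 counts in knockout libraries. Of the processing peptidase, *PMPCA* had a log2-fold change of −0.17 and *PMPCB*, the catalytic subunit, of 0.58 (adjusted p = 0.791 and 0.383). In both of these groups 0 genes were called by edgeR (against 5.18% of all tested genes), DESeq2, or limma-voom. An unadjusted p under 0.05 was reached by 0 (against 23.3%).

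**Figure D2:**
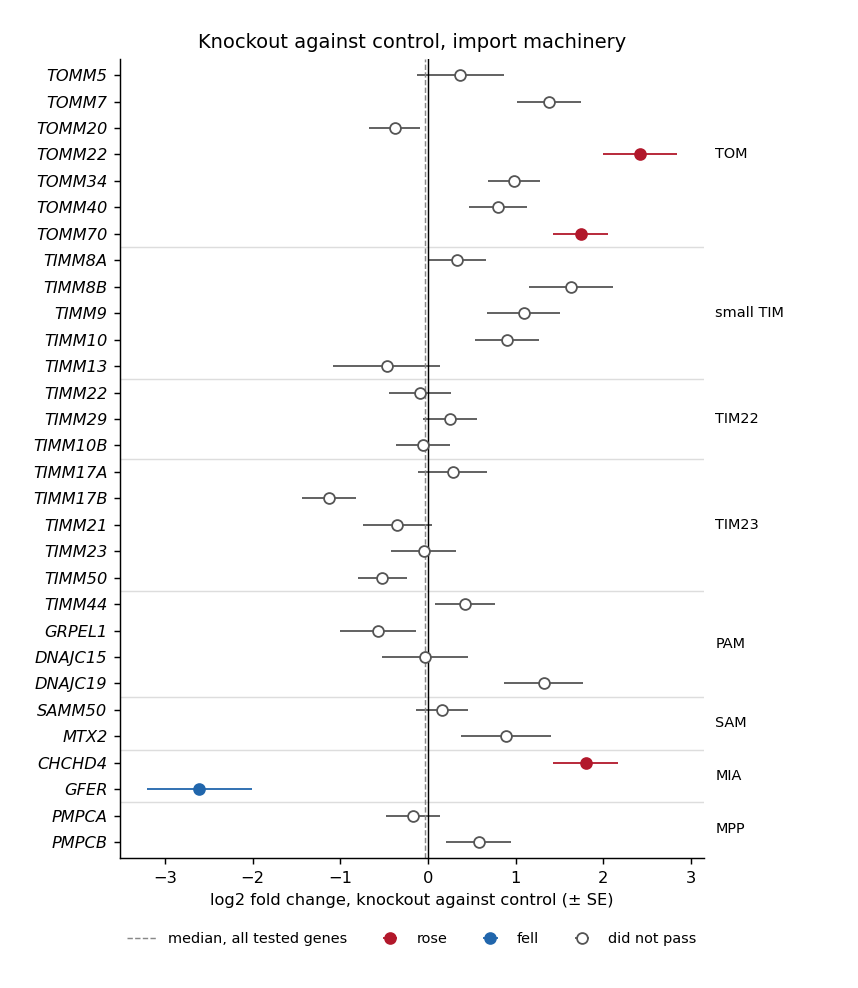
log2-fold change of knockout against control for the 30 tested import genes, with bars of 1 standard error, filled points for genes that passed the test and a dashed line at the median of all tested genes, −0.03. *TOMM22*, *TOMM70*, and *CHCHD4* are at 2.42, 1.74, and 1.80 and *GFER* at −2.61, and the TIM22 and TIM23 genes lie around or below 0.

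In the MIA pathway *CHCHD4* rose. It was 22.5 and 32.2 CPM in control and 121, 67.2, and 98.5 CPM in knockout pools, with means of 27.3 ± 6.84 CPM (SD, n = 2) and 95.6 ± 27.1 CPM (SD, n = 3). Every knockout pool was more than 2 times as high as the higher control, and the log2-fold change was 1.80 (SE 0.37, edgeR quasi-likelihood adjusted p = 0.026). The adjusted p was 0.0922 without the sgMTSS1_1 pool and 0.0825 without the sgMTSS1_3 pool. Annotation names 4 pseudogenes after *CHCHD4*.

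*GFER* was near the limit of detection. It had 14 and 10 counts in control and 4, 4, and 3 counts in knockout libraries, in spite of the greater depth of the latter, which is 4.38 and 2.98 CPM against 0.519, 0.722, and 0.522 CPM. The log2-fold change was −2.61 (SE 0.60, edgeR quasi-likelihood adjusted p = 0.0397). *GFER* reached the cutoff of the low-count filter, 1.84 CPM before TMM scaling in 2 libraries, through the control pools alone, so that its passing the filter and its direction are linked. It missed the threshold without any 1 of the 5 libraries, the adjusted p being 0.107, 0.0698, and 0.119 when knockout pool 1, 2, or 3 was omitted and 0.13 and 0.0736 when control pool 1 or 2 was omitted. It also missed the threshold with limma-voom (0.0561), received no adjusted p from DESeq2, and was not tested once libraries were thinned or 10 counts were required in every library. An unnamed antisense gene (ENSG00000261790) overlaps it. The log2 ratio of *CHCHD4* to *GFER* was 2.26 and 3.27 in control and 7.06, 5.92, and 6.76 in knockout pools. With so few *GFER* counts, the prior count of 2 makes these values smaller than the CPM above would give. This pair was chosen after its values had been seen, and no test of it is given.

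**Figure D3:**
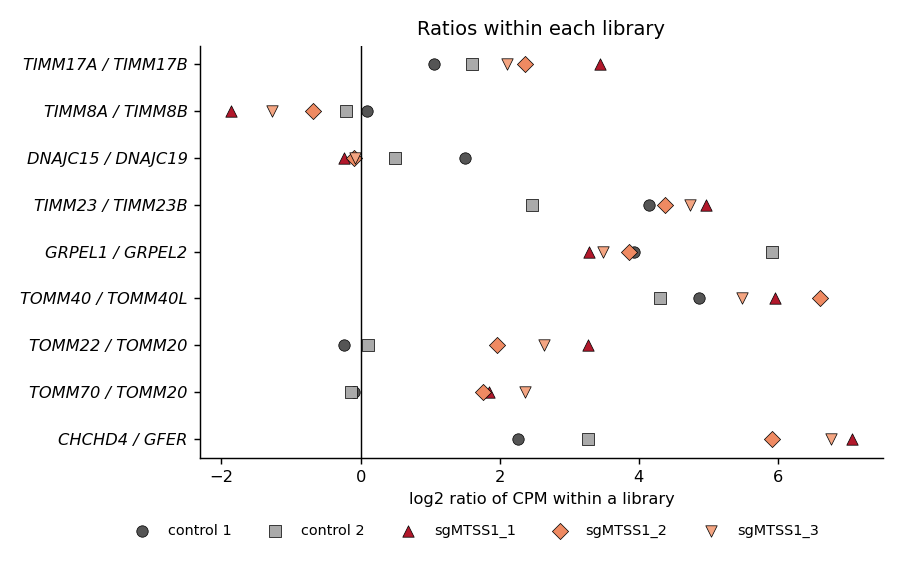
log2 ratio of the CPM of a pair of genes within each library, for 6 paralogue pairs and, in the last 3 lines, pairs chosen after their values had been seen, with 1 symbol per pool. The CPM include a prior count of 2, which shrinks ratios with low-count genes. In every pair shown the knockout pools lie on one side of both control pools. How often other gene pairs do so was not computed. Single genes lay above both controls in 22.2% and below both in 19.2% of all tested genes. *TOMM40L*, *TIMM23B*, and *GFER* have few counts.

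Taken by position and not by the test, every knockout pool lay above both control pools in 10 of the 30 genes (33.3%), against 22.2% of all tested genes, and below both in 4 (13.3%), against 19.2%. The 10 were *TOMM7*, *TOMM22*, *TOMM34*, *TOMM40*, *TOMM70*, *TIMM8B*, *TIMM9*, *TIMM10*, *DNAJC19*, and *CHCHD4*, and the 4 were *TOMM20*, *TIMM17B*, *TIMM50*, and *GFER*. Of these, *GFER* passed the low-count filter through the control pools alone. In 8 of the 10 the sgMTSS1_1 pool, which is also the deepest library and the highest in ribosomal protein counts, was the highest of all pools. This was so in 55.2% of all genes separate in that direction. Over the 30 genes the median was 0.31, with a range of −2.61 to 2.42, and 18 were above and 12 below 0. An unadjusted p under 0.05 was reached by 12, of which 10 were higher in the knockout. Over all tested genes, 23.3% reached it and 14.1% were also higher in the knockout. With libraries thinned to the smallest total the same 3 genes rose, *TOMM22*, *TOMM70*, and *CHCHD4*, at log2-fold changes of 2.41, 1.76, and 1.79. Without the sgMTSS1_1 pool or without the sgMTSS1_3 pool, *TOMM22* alone was called among the 30.

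The tested import genes had a median level of 51.7 CPM, against 15.8 CPM over all tested genes. Their transcripts had a median length of 1730 bases, against 2754, at a GC content of 47.2% against 47.1%. The median length was 1424.5 bases in the 10 genes above, 2824 bases in the 4 genes below, and 1767.5 bases in the 16 that overlapped. Across the 30 genes, which share the same 5 libraries and are not independent, the log2-fold change had a Spearman's rho of −0.346 with transcript length and −0.298 with GC content. Over 14353 tested genes these were −0.13 and −0.0221. With offsets for length and GC content, the same 3 genes rose, and *TIMM17B* joined *GFER* among those that fell (log2-fold change −1.32, adjusted p = 0.0302). The median of the 30 genes was 0.18 with these offsets, against 0.31 without them. It then exceeded the median of all tested genes by 0.18, against 0.34 without offsets.

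The genes beside the core import machinery were taken from 3 lists. Of 19 accessory import genes, 17 were tested and 2 rose (11.8%, against 4.17% of all tested genes). *MTCH2*, an insertase for helical outer membrane proteins that also recruits the apoptosis factor BID, was 66.3 and 119 CPM in control and 592, 426, and 473 CPM in knockout pools (log2-fold change 2.42, SE 0.38, edgeR quasi-likelihood adjusted p = 0.0131). *ROMO1*, a small subunit of the TIM23 complex, was 184 and 161 CPM in control and 1214, 528, and 699 CPM in knockout pools (2.24, SE 0.43, adjusted p = 0.0228). Both stood well above their controls in every knockout pool. Without the sgMTSS1_1 pool, neither passed, with adjusted p-values of 0.0598 for *MTCH2* and 0.062 for *ROMO1*, and *ROMO1* also missed the threshold without the sgMTSS1_3 pool (0.0639). *ROMO1* overlaps *NFS1* on the opposite strand.

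The largest log2-fold change of this list was that of *HSPE1*, the matrix cochaperonin, at 2.79 (SE 0.73, adjusted p = 0.0575). Its control pools, 54.1 and 9.54 CPM, were 5.67-fold apart, its knockout pools were at 372, 123, and 165 CPM, and 26 pseudogenes are named after it. *HSPE1* passed with DESeq2 (adjusted p = 0.000425), limma-voom (0.0382), and GC and length offsets (0.0442). Its partner *HSPD1* was 391 and 551 CPM in control and 861, 749, and 738 CPM in knockout pools (0.73, adjusted p = 0.216). The lowest was *TIMM23B* at −1.64 (adjusted p = 0.115), which like *GFER* passed the low-count filter through the control pools alone. *HSPA9*, the HSP70 of the import motor, was 297 and 269 CPM in control and 340, 257, and 233 CPM in knockout pools, which overlap (−0.03, adjusted p = 0.965). The median of the list was −0.03, equal to that of all tested genes. By position, 6 of its 17 tested genes (35.3%, against 22.2% of all tested genes) lay above both controls in every knockout pool. Below both were 3 (17.6%, against 19.2%), *TIMM23B* among them.

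MICOS, the complex that holds cristae junctions and binds SAM, held no gene that passed. edgeR's quasi-likelihood test (against 5.18% of all tested genes), DESeq2, and limma-voom each called 0 of its 8 genes. An unadjusted p under 0.05 was reached by 1 of them (against 23.3%), and the median was −0.08. The largest log2-fold change was that of *APOO* at 1.51, with levels of 1.25 and 2.38 CPM in control and 8.30, 3.07, and 4.18 CPM in knockout pools (adjusted p = 0.199). The lowest was that of *APOOL* at −0.74, with 22.2 and 17.6 CPM in control and 14, 12.3, and 9.4 CPM in knockout pools (adjusted p = 0.231). Both were separate between the groups without passing the test. In all, 2 of the 8 genes (25%, against 22.2% of all tested genes) lay above both controls in every knockout pool. Below both were 4 (50%, against 19.2%), among them *IMMT*, the core subunit, at −0.24.

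Twin CX9C proteins are the clients of the MIA pathway. Of 20 listed genes, 19 were tested, 3 rose (15.8%, against 4.17% of all tested genes), and 0 fell (against 1.01%). *CMC4* was not analysed here. *COX17*, the copper chaperone of cytochrome c oxidase, was 4.06 and 3.58 CPM in control and 65.6, 14.4, and 16.0 CPM in knockout pools (log2-fold change 3.07, SE 0.75, adjusted p = 0.047). *NDUFB7*, a subunit of complex I, was 18.1 and 15.5 CPM in control and 151, 58.7, and 57.6 CPM in knockout pools (2.41, SE 0.50, adjusted p = 0.0276). *COX19*, an assembly factor of cytochrome c oxidase, was 25.6 and 29.8 CPM in control and 85, 63, and 69.9 CPM in knockout pools (1.39, SE 0.31, adjusted p = 0.0357). In these 3 genes all knockout pools exceeded both controls, and the sgMTSS1_1 pool was the highest. *COX17* overlaps *POPDC2* and *COX19* overlaps *ADAP1* on the same strand. The use of strand in counting cannot resolve such overlaps.

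Of the 19 twin CX9C genes, 13 (68.4%, against 22.2% of all tested genes) were above both controls in every knockout pool, and the sgMTSS1_1 pool was the highest in all 13. The median log2-fold change was 0.84, and *CMC1* was lowest at −0.46 (adjusted p = 0.602). Without the sgMTSS1_1 pool edgeR called 0 of the 19, with adjusted p-values of 0.0781 for *COX17*, 0.0606 for *NDUFB7*, and 0.102 for *COX19*. *COX17* also missed the threshold without the sgMTSS1_3 pool (0.0554) and without control pool 1 (0.0881) or 2 (0.111), with limma-voom (0.109), with 10 counts in every library (0.0501), and with RLE (0.0536) or upper-quartile factors (0.0503). *COX19* did so without the sgMTSS1_2 pool (0.0723), the sgMTSS1_3 pool (0.106), or control pool 1 (0.0549), and with library size alone (0.0538), and *NDUFB7* without control pool 2 (0.0653). These lists were chosen with results of these data known.

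**Figure D4:**
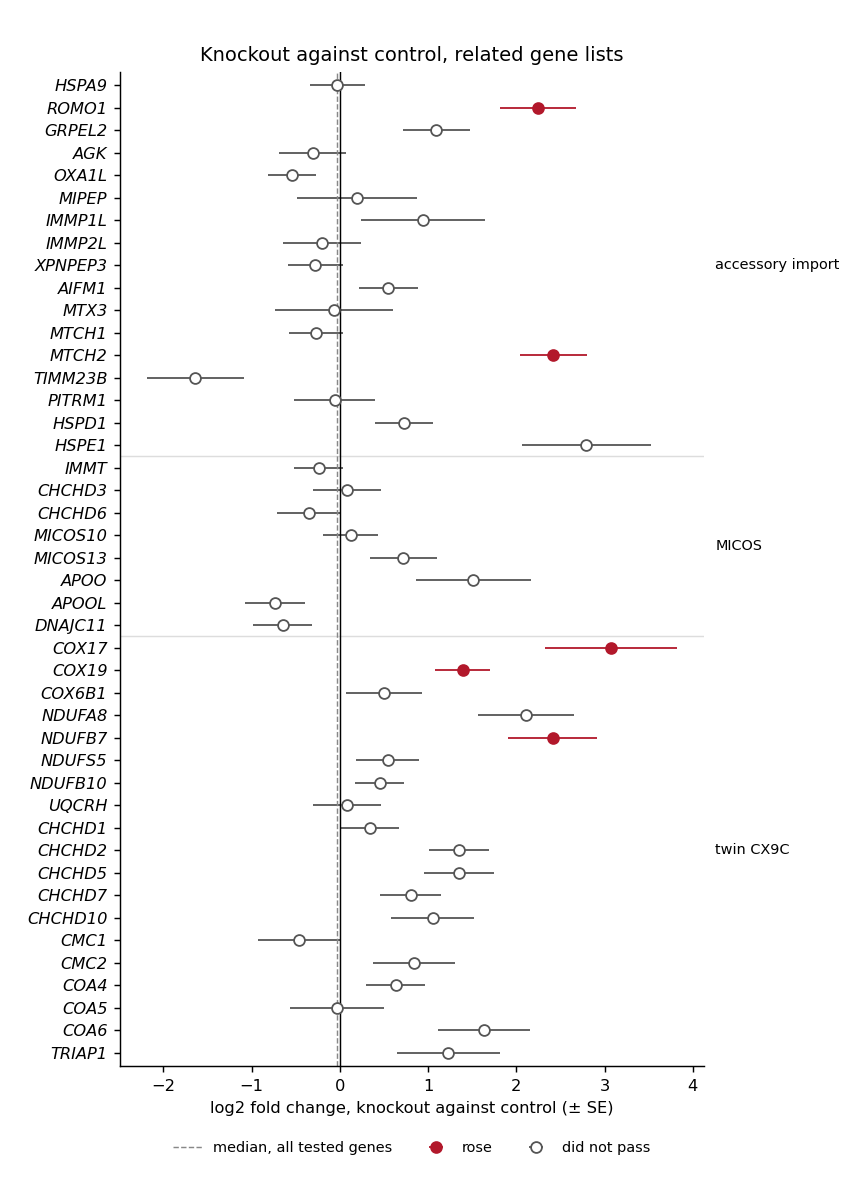
log2-fold change of knockout against control for the tested genes of 3 related lists, with bars of 1 standard error and filled points for genes that passed the test. *ROMO1*, *MTCH2*, *COX17*, *COX19*, and *NDUFB7* are filled, 17 of the 19 twin CX9C genes lie above 0, and the MICOS genes lie on both sides of it.

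**Figure D5:**
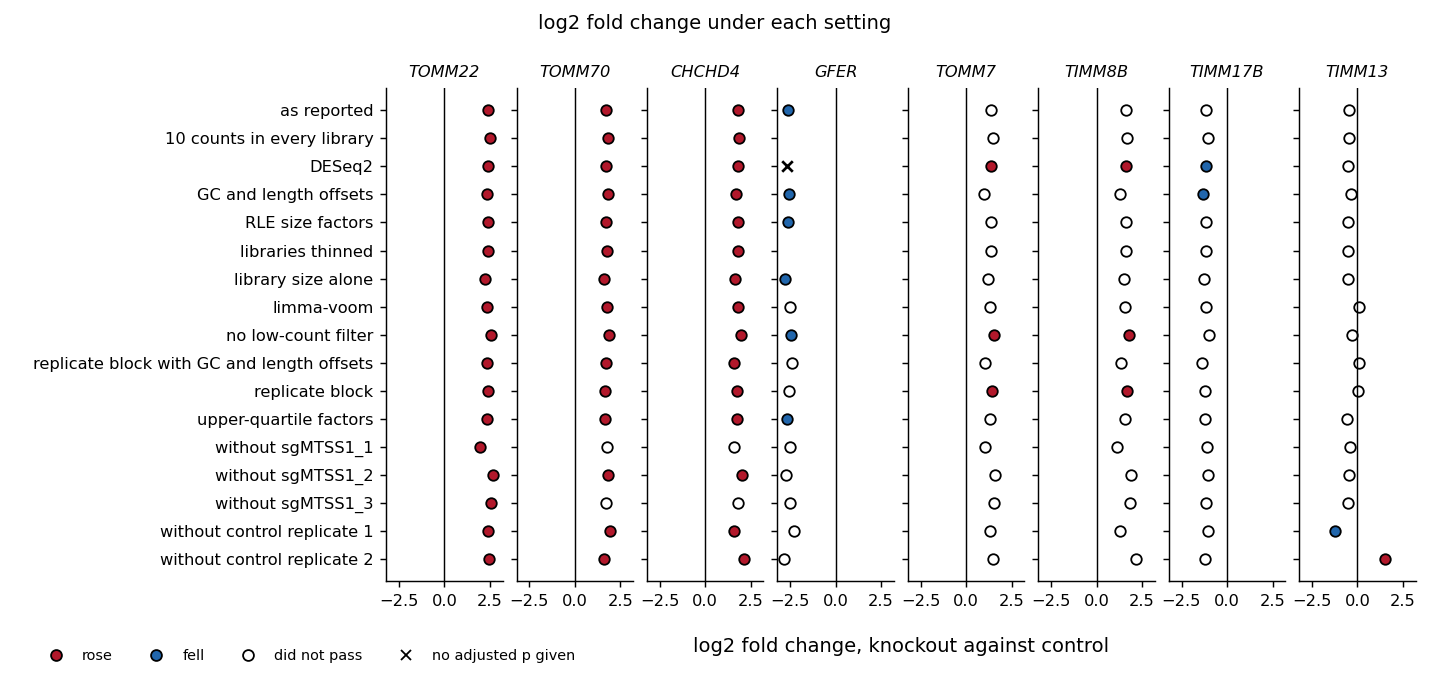
log2-fold change of 8 import genes as reported and under each alternative setting, with filled points where the gene passed the test, open points where it did not, and a cross where DESeq2 gave no adjusted p. No point is drawn where the gene was filtered out. *TOMM22* is filled throughout, *GFER* is open wherever a library is left out, and *TIMM13* changes sign with the control pool that is left out.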

How the data were processed

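RNA was extracted from 5 pools of TF-1 clones and made into QuantSeq 3′ mRNA libraries. Their reads start near the poly(A) tail, so that read numbers do not scale with transcript length. The authors trimmed the single-end reads with BBDuk, aligned them to GRCh38 with HISAT2 2.1.0, removed non-unique reads with SAMtools 1.10, and deposited the reads per Ensembl gene as raw counts. The counting program, annotation release, use of strand, and treatment of duplicates are not given in the sources used here.

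Libraries were grouped by their labels. Counts were filtered with filterByExpr at a minimum count of 10, scaled by TMM, and tested with edgeR 4.0.16's quasi-likelihood test (R 4.3.3) over all tested genes, with Benjamini-Hochberg adjustment. Standard errors come from the fold change and the F statistic. The unblocked model followed the authors' thresholds. The biological coefficient of variation was 32.2%. GENCODE release 44 gave gene names, lengths, and GC content, and RefSeq gave promoter windows. Scripts were tested on simulated data. The limit of 3 counts reflects counting error alone, because no source used here names molecular identifiers. The members and lists were chosen with earlier results of these data known. Named were all members and, of other lists, called genes, the largest rise and fall, and paralogues of members. *HSPA9*, *HSPD1*, and *IMMT* were named after their values were seen. Alternatives were DESeq2 1.42.0, limma-voom (limma 3.58.1), other scalings and filters, thinning, offsets for length and GC content (mgcv 1.9.3), a block for the pool number, and leaving out each library.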

Additional observations from a re-analysis of the deposited data

How the results depend on the processing

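*TOMM22* kept its direction and its call in all alternatives, and *TOMM70* and *CHCHD4* in all but the omission of the sgMTSS1_1 or the sgMTSS1_3 pool. Among the 30 import genes, 3 rose as reported, beside 600 of all 14391 tested genes, and 5 rose with DESeq2, beside 1019 of 14391. Without a low-count filter 6 rose, beside 1173 of 27328 genes. When a knockout pool was left out, between 1 and 3 rose, beside 107 to 323 of all tested genes. The import genes that fell were 2 with GC and length offsets, against 1 as reported. They were 0 when 10 counts were required in every library, with thinned libraries, with limma-voom, or when a knockout pool was left out. Over all genes, DESeq2 called 1019 higher and 338 lower, the fit without a filter 1173 higher, GC and length offsets 264 lower, and library size alone 232 lower. Leaving out a library gave 107 to 917 higher and 4 to 432 lower. Library size alone also moved the median of all genes to −0.17, and that of the import genes to 0.17. Twin CX9C calls were 6 with DESeq2 and 7 without a filter, and 0 to 4 when a library was left out, where accessory import calls were 0 to 3. The median of the import genes was then 0.15 to 0.48, that of the accessory genes −0.12 to 0.52, that of MICOS −0.27 to −0.01, and that of the twin CX9C genes 0.56 to 1.11. The accessory median was 0.17 with offsets, −0.19 with library size alone, and 0.19 with limma-voom. It was 0.38 with thinned libraries, where *MTX3* and *TIMM23B* were no longer tested, so that the set of genes differed. The MICOS median was −0.24 with thinned libraries, where *APOO* was no longer tested, and the twin CX9C median was 0.67 with library size alone.

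Signs that turned belonged to genes that did not pass as reported. *TIMM13* was 0.10 with limma-voom. *TIMM22* was 0.06 without a filter. *TIMM10B* was 0.00 with 10 counts in every library, 0.01 thinned, and 0.09 without a filter. *TIMM23* was 0.04, 0.06, and 0.10 in the same order, and 0.04 with limma-voom. *DNAJC15* was 0.06 with 10 counts in every library, 0.25 with offsets, 0.08 with limma-voom, and 0.12 without a filter. Leaving out a library gave ranges of −0.1 to 1.1 for *TOMM5*, −1.26 to 1.51 for *TIMM13*, −0.31 to 0.22 for *TIMM22*, −0.28 to 0.23 for *TIMM10B*, −0.18 to 0.49 for *TIMM17A*, −0.76 to 0.27 for *TIMM21*, −0.47 to 0.60 for *TIMM23*, −1.16 to 0.51 for *GRPEL1*, −0.57 to 0.93 for *DNAJC15*, and −0.48 to 0.28 for *PMPCA*. The causes were not tested.

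Both groups have pools numbered 1 and 2, but nothing in the labels says that they mark pools handled together. The differences between pools 1 and 2 of each group had a Pearson's r of 0.17 across genes, over these 2 shared numbers, so the numbers were not taken as pairs. Pool number 3 occurs in the knockout alone, so that under a block for the number the sgMTSS1_3 pool does not inform the comparison. The blocked comparison therefore rests on pools 1 and 2 of each group. With the replicate block, 894 of all genes rose and 200 fell, against 600 and 145 as reported. Under it 6 import genes rose and 0 fell, with *TOMM7*, *TIMM8B*, and *DNAJC19* added and *GFER* lost (adjusted p = 0.0753), and 5 twin CX9C genes rose. With the replicate block and offsets together, 0 import genes fell, 5 twin CX9C genes rose, and the accessory median was 0.21. The log2-fold changes under the block alone were 0.04 for *TIMM13*, 0.06 for *TIMM23*, and 0.20 for *DNAJC15*, and with offsets 0.09 for *TIMM13*, 0.40 for *DNAJC15*, and −0.09 for *SAMM50*. At the depth of the control libraries, *GFER*, *TOMM40L*, *PAM16*, and *MTX1* rest on few reads, and the last 3 could not be tested.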

Other observations

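The control pools differed by more than 2-fold in 8 of the 30 tested import genes (26.7%), *TOMM5*, *TIMM9*, *TIMM13*, *TIMM21*, *TIMM23*, *GRPEL1*, *DNAJC15*, and *MTX2*, against 30.7% of all tested genes. In 4 of the 8 control pool 2 was the higher and in 4 control pool 1. None of these 8 genes passed edgeR's quasi-likelihood test with both control pools present. A fit with a single control pool cannot measure the spread between control pools.

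The counts of the import genes added up to 1714.7 and 3326.3 CPM in control pools 1 and 2 and to 3511.6, 2656.2, and 2903.1 CPM in knockout pools 1 to 3, which overlap. Without *TIMM13*, the sums were 1487.4 and 1788.0 CPM in control and 2931.0, 2019.1, and 2214.5 CPM in knockout pools, which do not. These sums still include the called genes. Among them, *TOMM22* was 72.5 and 73.6 CPM in control and 591, 261, and 319 CPM in knockout pools. *TOMM70* was 79.7 and 62.3 CPM in control and 220, 226, and 266 CPM in knockout pools. The sums therefore do not show a rise of the import genes in general. The omission of *TIMM13* was chosen after its values had been seen, and the sums were not tested.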
